A study of Rattus norvegicus with 8 samples.

Results

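The contractile smooth muscle genes described here are 10 genes that mark the differentiated, force-producing smooth muscle cell: Acta2, Actg2, Tagln, Cnn1, Myh11, Myocd, Smtn, Lmod1, Des and Mylk. They were chosen by symbol, each through the probe set with the highest mean among those annotated to that symbol alone. All 10 were found, each with 1 probe set, among 14506 genes tested. RNA of full-term neonates, taken 1 h after birth from the aorta or the ductus arteriosus (DA), was hybridised to 8 arrays of the type Affymetrix Rat Gene 1.0 ST. The rats were of the inbred strains Fischer344 (F344) and Brown-Norway (BN), and each of the 4 groups, F344 DA, F344 aorta, BN DA and BN aorta, had 2 arrays. The labels name no allele, agent or treatment in any group. RNA came from pooled tissues, and nothing in the labels states that the 2 arrays of a group hold different animals. P-values therefore measure only the spread between these arrays, which may be technical. In whole tissue, a higher share of smooth muscle cells and more RNA per cell cannot be told apart.

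The DA joins the pulmonary artery to the aorta before birth and closes by contraction of its muscular wall after birth. The aorta has an elastic wall of the same general cell type and does not close. Smooth muscle shortens when calcium and calmodulin activate myosin light chain kinase, so that phosphorylated myosin pulls on actin filaments anchored in dense bodies. The genes of this apparatus are switched on together by serum response factor (SRF) and its coactivator myocardin, which act through a DNA element called the CArG box. BN rats have served in the field as a model of delayed or failed ductus closure.

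Values are log2 expression, so that a difference of 1 is 2-fold, and levels are compared between groups for the same gene, never between genes. All 10 genes were above the median of tested genes (7.48) on every array, the lowest value being 9.16 for Lmod1. Tfap2b, a transcription factor gene of the ductus, was between 9.25 and 9.92 on the 4 DA arrays and between 5.51 and 6.75 on the 4 aorta arrays, as the tissue labels say. The BN DA replicates differed more than others, with an SD of the replicate difference over all genes of 0.349 against 0.196 to 0.258 in the other groups. BN DA replicate 1 also had a mean of thymocyte and lymphocyte markers of 7.08, against 5.91 to 6.03 on the other 7 arrays. Of these 10 markers 8, Cd3d and Cd3e among them, were below the median of tested genes on every array.

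DA and aorta were compared within each strain to ask how the contractile programme differs between a vessel that closes and one that does not. In F344, 3 of the 10 genes rose in DA: desmin (Des) 2.61-fold, gamma-2 smooth muscle actin (Actg2) 2.36-fold and calponin (Cnn1) 1.4-fold. None fell. In BN, 0 of the 10 passed limma's test at an adjusted p under 0.05 and 3 had an unadjusted p under 0.05 (2026 of the 14506 genes tested did), the largest difference being that of Actg2, 2.17-fold. With the strains averaged, Actg2, Des, Tagln, Cnn1 and Mylk rose, by between 1.25-fold and 2.26-fold. Smooth muscle alpha actin (Acta2), the most used marker of the lineage, had differences of 0.13 in F344 and 0.07 in BN.

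Over all tested genes, 8.87% were called higher in DA in F344, 0.986% in BN and 10.1% with the strains averaged, and 5.12%, 0.82% and 6.47% were called lower. The difference was above 0 for 10 of 10 contractile genes in each strain, against 44.4% of all genes in F344 and 49.8% in BN. The median difference of the 10 was 0.35 in F344 and 0.25 in BN, beside -0.04 and 0.00 over all genes. The arrays of DA lay above those of aorta for 8 of the 10 genes in F344, against 29.6% of all genes, and for 7 in BN, against 18.7%. For Acta2, Actg2, Cnn1 and Mylk all 4 DA arrays lay above all 4 aorta arrays, which held for 8.03% of all genes.

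**Figure D1:**
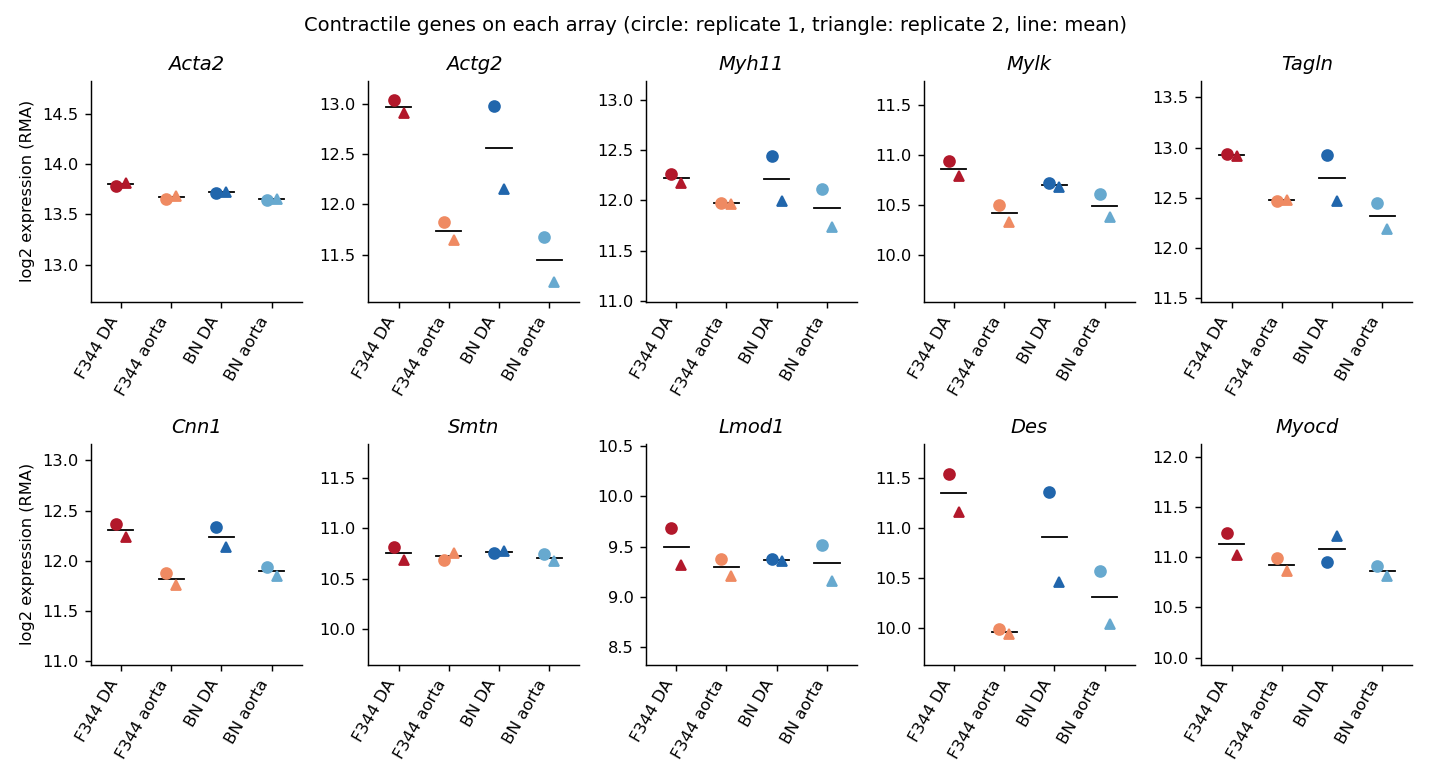
Log2 expression of the 10 contractile genes (y axis, each panel spanning the same 2.2 log2 units) on the arrays of the 4 groups (x axis); circles are replicate 1, triangles replicate 2 and lines group means over 2 arrays. Actg2 and Des have the widest range over groups, Acta2 and Smtn the narrowest, and the BN DA replicates of Actg2, Des, Tagln and Myh11 lie apart.

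The promoters of 4 members are shown because these genes separate Acta2, which did not pass between the vessels in either strain, from the 3 genes that rose in F344 DA. Each line gives the 250 bases before the annotated start, read 5′ to 3′ on the gene's strand, from RefSeq on build GRCr8. Capitals mark matches to the CArG box, searched on both strands as CC, 6 bases of A or T, and GG, with at most 1 base changed. Of the 10 genes, 6 had a sequence: these 4, Smtn and Mylk.
Acta2: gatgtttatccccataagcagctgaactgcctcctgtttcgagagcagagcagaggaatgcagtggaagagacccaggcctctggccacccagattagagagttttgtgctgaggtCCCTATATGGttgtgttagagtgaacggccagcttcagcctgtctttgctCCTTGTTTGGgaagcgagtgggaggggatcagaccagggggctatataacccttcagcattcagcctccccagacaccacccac
Actg2: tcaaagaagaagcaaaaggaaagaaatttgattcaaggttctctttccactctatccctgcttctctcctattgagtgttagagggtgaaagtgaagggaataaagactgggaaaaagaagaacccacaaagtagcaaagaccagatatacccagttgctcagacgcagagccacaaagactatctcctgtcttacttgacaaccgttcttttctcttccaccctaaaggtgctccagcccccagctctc
Cnn1: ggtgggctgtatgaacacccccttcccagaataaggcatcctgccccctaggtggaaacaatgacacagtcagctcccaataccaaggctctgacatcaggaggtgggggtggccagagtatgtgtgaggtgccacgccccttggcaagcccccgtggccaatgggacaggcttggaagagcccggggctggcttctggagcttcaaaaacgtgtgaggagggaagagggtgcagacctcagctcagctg
Des: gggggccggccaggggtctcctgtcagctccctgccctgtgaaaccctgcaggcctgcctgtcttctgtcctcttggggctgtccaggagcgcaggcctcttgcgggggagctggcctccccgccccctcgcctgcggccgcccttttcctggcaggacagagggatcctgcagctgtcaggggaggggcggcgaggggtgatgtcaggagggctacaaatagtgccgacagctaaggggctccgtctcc
The coordinates are chr1:241172504-241172753 for Acta2, chr4:117594040-117594289 for Actg2, chr8:28908187-28908436 for Cnn1 and chr9:84299376-84299625 for Des. Acta2 and Actg2 are on the minus strand, Cnn1 and Des on the plus strand. The Actg2 window lies inside the span of its RefSeq gene model, chr4:117579513-117604379, so it belongs to an internal start. Acta2 held 2 matches, starting 134 and 84 bases before the start, each with 1 changed base. The window of Mylk likewise lies inside its gene model. Smtn held 1 match, and Actg2, Cnn1, Des and Mylk held none in these 250 bases, which says nothing of elements outside the window. The unchanged CArG box was in 0 of the 6 sequences and in 1.18% of 11968 tested genes with a sequence. With at most 1 change it was in 2 of 6 and in 17.1% of those genes.

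The actins came first among the members because they form the thin filament on which myosin pulls. Actg2, an isoform typical of visceral muscle that is also made in vessels, was at 13.04 and 12.91 in DA against 11.83 and 11.65 in aorta on the F344 arrays, and at 12.98 and 12.15 in DA against 11.68 and 11.22 in aorta on the BN arrays. Every DA array was above every aorta array, and BN DA replicate 2 was the lowest of the 4 DA arrays. The difference between DA and aorta was 1.24 ± 0.25 (SE) in F344 (limma, Benjamini-Hochberg adjusted p = 0.0119) and 1.11 ± 0.25 in BN (adjusted p = 0.0664). Here and below, each SE rests on a spread shared by the 4 groups, not on that of 1 strain. The replicate SD of Actg2 was 0.09 in F344 DA and 0.13 in F344 aorta, against 0.58 and 0.32 in BN. Averaged over strains the difference was 1.18 ± 0.18 (limma adjusted p = 0.0025). The BN difference ran from 0.70 without BN DA replicate 1 to 1.53 without BN DA replicate 2.

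Acta2, whose product is the main actin of vascular smooth muscle, was at 13.78 and 13.82 in DA against 13.66 and 13.69 in aorta on the F344 arrays, and at 13.71 and 13.73 in DA against 13.64 and 13.66 in aorta on the BN arrays. The groups of DA and aorta did not overlap, but all 8 values lay within 0.18 of each other. The 95% interval of the DA difference was -0.12 to 0.38 in F344 and -0.18 to 0.32 in BN, below that of Actg2 in each strain, which was 0.67 to 1.80 and 0.55 to 1.68. The highest value of Acta2 was 0.34 under the highest value in the table (14.16), and whether signals this bright were compressed was not tested.

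Of the actin-binding members, calponin (Cnn1), which binds actin and slows the myosin motor, was at 12.37 and 12.23 in DA against 11.88 and 11.76 in aorta on the F344 arrays, and at 12.33 and 12.14 in DA against 11.94 and 11.85 in aorta on the BN arrays. The DA arrays were the higher 4. The difference was 0.48 ± 0.13 in F344 (limma adjusted p = 0.0377), 0.34 ± 0.13 in BN (adjusted p = 0.27) and 0.41 ± 0.09 on average (adjusted p = 0.0151). The F344 call was lost without any 1 F344 array and without either BN aorta array, although the difference stayed between 0.41 and 0.55.

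Transgelin (Tagln, SM22 alpha), an actin-bundling protein and an early marker of the lineage, was at 12.94 and 12.91 in DA against 12.47 and 12.48 in aorta on the F344 arrays, and at 12.93 and 12.47 in DA against 12.45 and 12.19 in aorta on the BN arrays. BN DA replicate 1 matched F344 DA, whereas BN DA replicate 2 was at the level of F344 aorta. The difference was 0.45 ± 0.17 in F344 (limma adjusted p = 0.109), 0.38 ± 0.17 in BN (adjusted p = 0.356; 0.15 without BN DA replicate 1 and 0.61 without BN DA replicate 2) and 0.41 ± 0.12 on average (adjusted p = 0.0419). The replicate SD was 0.018 in F344 DA and 0.01 in F344 aorta, against 0.328 and 0.185 in BN. In F344 the difference passed in 3 of 10 settings. These were centring on brighter genes (limma adjusted p = 0.019), array weights (0.0241) and a fit of the 4 arrays compared (0.0189). The averaged difference did not pass without any 1 of 7 arrays (adjusted p between 0.059 and 0.125), the exception being BN DA replicate 2.

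Smoothelin (Smtn), found in contractile rather than proliferating smooth muscle, lay between 10.67 and 10.82 on all 8 arrays, with differences of 0.03 ± 0.12 in F344 and 0.05 ± 0.12 in BN. The 95% interval of its averaged difference was -0.14 to 0.23. Leiomodin 1 (Lmod1), which starts actin filaments in smooth muscle, lay between 9.16 and 9.69, with differences of 0.21 ± 0.17 in F344 and 0.03 ± 0.17 in BN. Its arrays overlapped between the vessels in each strain.

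The motor and its kinase follow. Smooth muscle myosin heavy chain (Myh11), the most specific marker of mature smooth muscle, was at 12.27 and 12.18 in DA against 11.97 and 11.97 in aorta on the F344 arrays, and at 12.45 and 11.99 in DA against 12.12 and 11.73 in aorta on the BN arrays. Replicate 1 was above replicate 2 in each BN vessel by more than the BN tissue difference of 0.29 ± 0.18. The F344 difference was 0.25 ± 0.18 (limma adjusted p = 0.378), and the averaged difference of 0.27 did not pass (adjusted p = 0.185), although it did without BN DA replicate 2 (adjusted p = 0.0443). Leaving out 1 array, the averaged difference ran from 0.16 to 0.38 (highest adjusted p 0.394) and the BN difference from 0.06 without BN DA replicate 1 to 0.52 without BN DA replicate 2, neither of which passed.

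Mylk, which encodes the kinase that phosphorylates the myosin light chain to start contraction, was at 10.94 and 10.79 in DA against 10.50 and 10.34 in aorta on the F344 arrays, and at 10.72 and 10.68 in DA against 10.61 and 10.38 in aorta on the BN arrays. All DA arrays were above all aorta arrays. The difference was 0.44 ± 0.13 in F344 (limma adjusted p = 0.0582), 0.21 ± 0.13 in BN (adjusted p = 0.577) and 0.33 ± 0.10 on average (adjusted p = 0.0453). The F344 difference passed in 5 other settings without a block, among them a mean-variance trend (adjusted p = 0.0495), repeated quantile normalization (0.0246) and centring on brighter genes (0.0101). The averaged call was lost without any 1 of the 8 arrays (adjusted p between 0.0554 and 0.172).

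Desmin (Des), the intermediate filament protein that ties dense bodies together in muscle, had the largest F344 difference of the 10. It was at 11.54 and 11.16 in DA against 9.996 and 9.94 in aorta on the F344 arrays, and at 11.36 and 10.46 in DA against 10.57 and 10.04 in aorta on the BN arrays. F344 DA was clear of F344 aorta, but in BN replicate 2 of DA lay below replicate 1 of aorta. The difference was 1.38 ± 0.28 in F344 (limma adjusted p = 0.0119), 0.60 ± 0.28 in BN (adjusted p = 0.385) and 0.99 ± 0.20 on average (adjusted p = 0.00913). The BN difference ran from 0.16 without BN DA replicate 1 (adjusted p = 0.769) to 1.05 without BN DA replicate 2 (adjusted p = 0.0387), where alone it passed.

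Desmin is also made in heart and skeletal muscle, so markers of these tissues were measured beside it. Of 17 cardiac markers 11, Myh6, Myh7, Tnni3 and Nppa among them, were below the median of tested genes on every array, and the list's mean was 6.80 and 6.89 in F344 DA and 6.73 and 6.80 in F344 aorta. None of the cardiac markers passed in F344 (limma, 0 with an unadjusted p under 0.05, against 4273 of all 14506 genes). In BN the list's mean was 7.02 and 7.18 in DA against 6.75 and 6.92 in aorta. There 1 of the 17 passed, Pln, which was higher in DA and was below the median of tested genes on every array. In BN 4 had an unadjusted limma p under 0.05, against 2026 of all 14506 genes. Between the strains in DA 6 did, against 3301 of all genes, and 0 passed. Tnnt2 and Actc1, named after their values were seen, had the largest BN tissue differences of the list, 1.34 (limma adjusted p = 0.209) and 1.06 (adjusted p = 0.305). Both differences leaned on BN DA replicate 2. Tnnt2 was at 7.47 and 9.24 in BN DA against 6.77 and 7.27 in BN aorta. Actc1 was at 7.985 and 9.71 in BN DA against 7.58 and 7.98 in BN aorta. The part of cardiac RNA in the BN values of Des was not tested. Of 11 skeletal markers 8, Myod1 and Myog among them, were below that median on every array, and Tnnt3 alone passed, lower in F344 DA. In BN DA, Des was higher on replicate 1 and the cardiac mean on replicate 2.

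Myocd, which encodes myocardin, was at 11.25 and 11.02 in DA against 10.99 and 10.86 in aorta on the F344 arrays, and at 10.95 and 11.21 in DA against 10.91 and 10.82 in aorta on the BN arrays. The vessels did not overlap within a strain, and BN DA replicate 2 was here the higher of its pair. The difference was 0.21 ± 0.14 in F344 (limma adjusted p = 0.356) and 0.22 ± 0.14 in BN (adjusted p = 0.583), with a 95% interval of the average from -0.01 to 0.44.

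**Figure D2:**
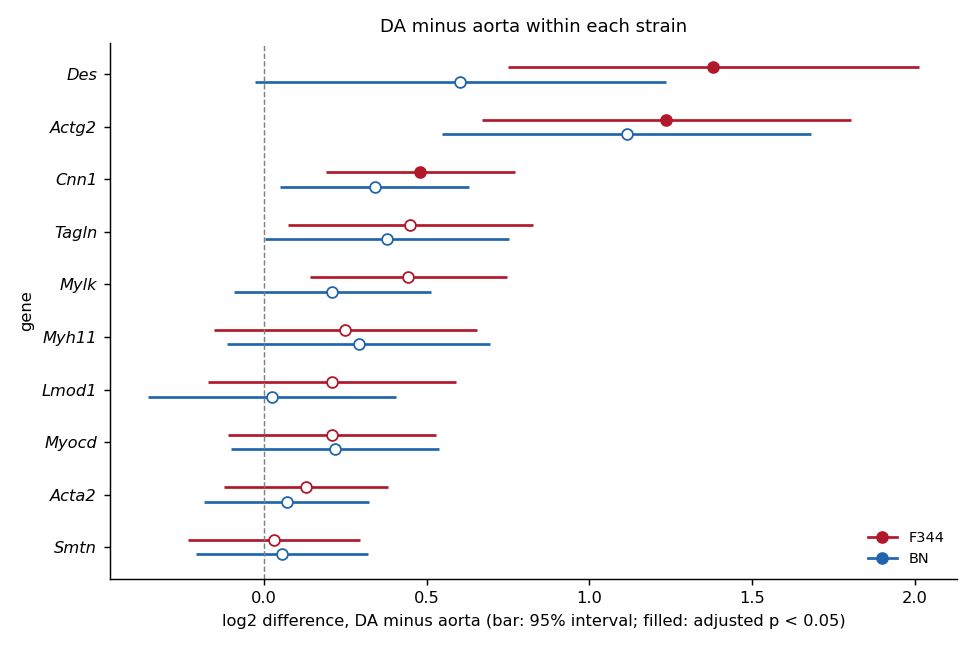
Log2 difference between DA and aorta (x axis) for each contractile gene (y axis) in F344 (red) and BN (blue), with 95% intervals from limma; filled points had an adjusted p under 0.05. Des, Actg2 and Cnn1 are filled in F344 and no gene is filled in BN, although every point is above 0.

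The F344 calls depended on having all F344 arrays, and most or all were lost when any 1 of these was left out. A group then held 1 array, and calls over all genes fell as well, so the loss is not particular to the 10. The differences themselves stayed between 1.15 and 1.33 for Actg2, 1.19 and 1.57 for Des, and 0.41 and 0.55 for Cnn1. Without either BN DA array Tagln and Mylk were added in F344, while calls over all genes rose too. Of the averaged calls, those of Actg2 and Des were kept without any 1 of the 8 arrays. Those of Tagln, Cnn1 and Mylk were not, and calls over all genes moved in these fits as well. In BN, Actg2 and Des differed between the vessels by 1.53 and 1.05 without BN DA replicate 2.

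Scaling also bore on the size of the differences. Brighter genes, to which all 10 belong, had a median difference of -0.17 in F344 and -0.04 in BN as deposited. Centring the arrays on brighter genes raised the median of the 10 from 0.35 to 0.56 in F344 and from 0.25 to 0.30 in BN, and 5 genes were then called in F344. Repeated quantile normalization gave medians of 0.42 and 0.25.

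Strains were then compared within each vessel, which asks whether the BN ductus differs in its contractile genes. In DA, 9 of the 10 genes had lower means in BN than in F344, as did 50.5% of all genes, and 0 passed (limma, 0 with an unadjusted p under 0.05), against 4.53% of all genes called and 22.8% with an unadjusted p under 0.05. The largest differences were -0.44 ± 0.28 for Des (adjusted p = 0.398), -0.41 ± 0.25 for Actg2 (adjusted p = 0.38) and -0.23 ± 0.17 for Tagln (adjusted p = 0.466). The median was -0.11, beside 0.00 over all genes and 0.11 over brighter genes. All 10 intervals included 0, but their bounds ran from -1.07 (Des) to 0.40 (Myh11), so a 2-fold lower Des in BN DA is within its interval.

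The strain difference in DA turned on which BN array was used. Without BN DA replicate 2, Actg2, Des and Tagln differed from F344 DA by 0.01, 0.01 and 0.00. Without BN DA replicate 1, Actg2 was lower in BN DA by -0.82 (limma adjusted p = 0.0382) and Des by -0.89 (adjusted p = 0.0478), and both passed. Replicate 1, which was the higher for 7 of the 10 genes, was also the array with the higher mean of lymphocyte markers. Replicate 2 had the higher mean of cardiac markers. The part of either array's cell content in this result was not tested. In DA the arrays of the strains did not overlap for Acta2 and Mylk, lower in BN, which is 2 of 10 against 24.3% of all genes.

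In the aorta, 0 of the 10 genes passed between strains (limma, 0 with an unadjusted p under 0.05), against 0.159% of all genes called and 5.22% with an unadjusted p under 0.05. Differences ran from -0.29 ± 0.25 for Actg2 to 0.34 ± 0.28 for Des. Des was higher in BN aorta on both arrays and Tagln lower on both, 1 gene in each direction, against 17.9% and 17.8% of all genes. The 95% interval of the strain difference of Acta2 was -0.27 to 0.23 and that of Myh11 -0.45 to 0.36.

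**Figure D3:**
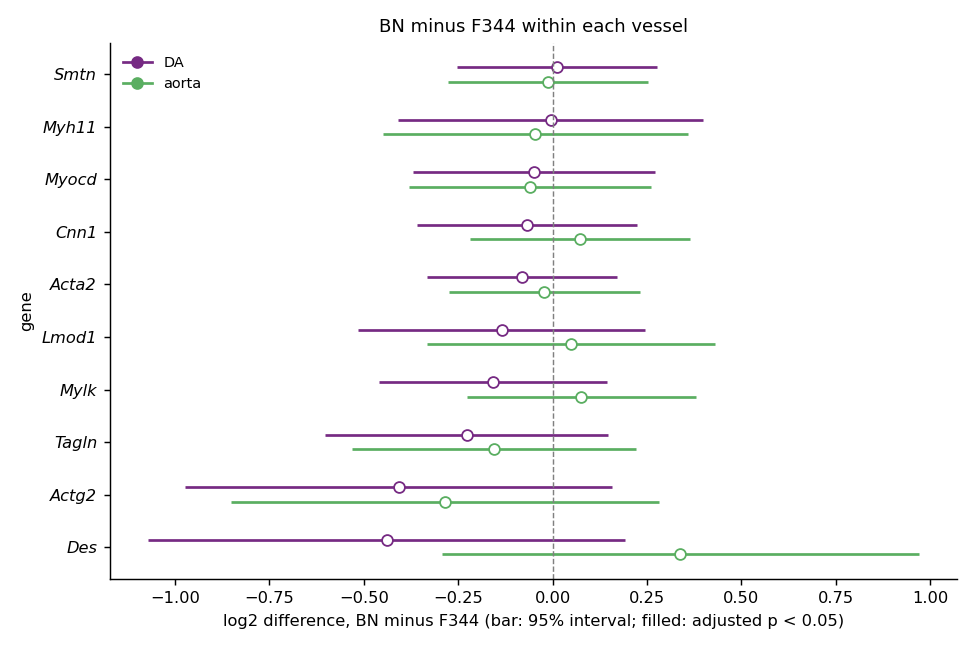
Log2 difference between BN and F344 (x axis) for each contractile gene (y axis) in DA (purple) and aorta (green), with 95% intervals from limma; no point is filled because none had an adjusted p under 0.05. Des and Actg2 have the widest intervals, and Des lies below 0 in DA and above 0 in aorta.

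The interaction, BN minus F344, tested directly for strain dependence of the difference between the vessels. None of the 10 genes passed (limma, 0 with an unadjusted p under 0.05). Over all genes 0.0% were called and 9.67% had an unadjusted p under 0.05. Des had the largest value, -0.78 ± 0.40 (adjusted p = 0.565, 95% interval -1.67 to 0.12), its difference being 1.38 in F344 and 0.60 in BN. The interaction ran from -1.22 without BN DA replicate 1 to -0.33 without BN DA replicate 2. For Actg2 the interaction was -0.12 ± 0.36 and for Acta2 -0.06 ± 0.16. By mean, F344 DA was the highest of the 4 groups for 9 genes and BN DA for Smtn. BN DA came after F344 DA for those 9, and the order of the aortas varied. For these neighbours, the strains of 1 vessel, all intervals of the strain difference of the 10 genes included 0. With 2 arrays per group this does not show that the strains are alike, the interval of Des in DA being -1.07 to 0.19.

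Replicate 1 was above replicate 2 for 9 of the 10 genes in F344 DA, 7 in F344 aorta, 7 in BN DA and 9 in BN aorta, whereas this held for 44.3% to 51.1% of all genes. The largest gaps were those of Des, 0.89 in BN DA and 0.53 in BN aorta, and of Actg2, 0.83 and 0.46. In each group the mean of erythroid markers was also higher on replicate 1, at 7.87 and 7.18 in DA against 7.44 and 6.95 in aorta on the F344 arrays, and at 8.23 and 7.31 in DA against 7.77 and 7.25 in aorta on the BN arrays. Their part in the gaps was not tested.

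Other genes of contraction were taken from 4 lists. Of 13 other filament genes, which include tropomyosins, caldesmon and cytoplasmic actins, 0 passed in any of the 6 comparisons. In the averaged tissue comparison 2 had an unadjusted limma p under 0.05, against 4386 of all 14506 genes. In the other comparisons 0 did, against 4273 of all genes for the vessels in F344 and 2026 in BN. Myl9, the light chain that Mylk phosphorylates, named here after its values were seen, had differences of 0.21 ± 0.23 in F344 and 0.31 ± 0.23 in BN.

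Among 26 genes that set calcium and myosin phosphorylation, 1 rose and 3 fell in F344 DA, 1 rose and 1 fell in BN DA, and 4 rose and 3 fell on average. The shares of all genes called in each direction, given above for the contractile genes, are the background for all 4 lists. A count near them is no result about a list. For an unadjusted limma p under 0.05 in BN the background is 2026 of the 14506 genes. Casq2, the calcium store protein calsequestrin, fell by 1.76 in F344 (limma adjusted p = 0.00298), and the p21-activated kinase gene Pak1 fell by 0.88 there and by 0.63 in BN. The calcium channel subunit gene Cacnb2 rose by 0.56 in F344, and Arhgef1, an activator of RhoA, fell by 0.43. Pln, which encodes phospholamban, a brake on the calcium pump, was higher in DA than in aorta by 0.95 in BN (limma adjusted p = 0.00879). It was lower in BN than in F344 aorta by 0.91. Pln was below the median of tested genes on every array, and BN aorta was its low group. Its means were 7.33 in BN DA, 6.385 in BN aorta, 7.18 in F344 DA and 7.29 in F344 aorta. Ppp1r12a, the targeting subunit of myosin phosphatase, the enzyme that opposes Mylk, rose by 0.59 on average (adjusted p = 0.00932). Casq2 was higher in BN than in F344 DA by 1.55. It was at 9.64 and 10.62 on the BN DA arrays and at 8.53 and 8.63 on the F344 DA arrays. In aorta it was at 10.26 and 10.43 in F344 and at 10.58 and 10.65 in BN. The cardiac marker mean was also higher on BN DA replicate 2, and the part of cardiac RNA in the Casq2 values was not tested. With 1 array left out, the F344 calls of Casq2 and Pak1 and the averaged call of Ppp1r12a were kept throughout. The F344 calls of Cacnb2 and Arhgef1 were lost without any 1 of the 4 F344 arrays (highest adjusted p 0.141 and 0.216), and that of Pak1 in BN without any 1 of the 8 (highest 0.323). Both rescalings, repeated quantile normalization and centring on brighter genes, also ended the F344 call of Arhgef1 (-0.24 and -0.22, adjusted p = 0.216 and 0.255) and the BN call of Pak1 (-0.57 and -0.58, adjusted p = 0.0552 and 0.0913), and centring ended the strain call of Pln in aorta (adjusted p = 0.0774). The BN call of Pln was lost without BN aorta replicate 1 (adjusted p = 0.0947), and its strain call in aorta was lost without any array but those of BN DA (highest 0.419). The strain call of Casq2 in DA was lost without either F344 DA array (highest 0.14). The list's median was -0.11 in F344 and 0.06 in BN.

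Of 27 genes of dense bodies and membrane anchors, 0 rose and 2 fell in F344 DA, 0 passed in BN (limma, 6 with an unadjusted p under 0.05), and 1 rose and 3 fell on average. The delta-sarcoglycan gene Sgcd fell by 1.31 in F344 (adjusted p = 0.000581) and the laminin receptor gene Itga7 by 1.20 (adjusted p = 0.00355). On average Sgcd fell by 0.79, Itga7 by 0.89 and Sspn (sarcospan) by 0.37, and the LIM protein gene Pdlim3 rose by 0.56. The averaged differences of Sgcd, Itga7 and Sspn thus had the opposite sign to those of Des and Actg2. Sgcd and Ldb3 were higher in BN than in F344 DA, by 0.85 and 0.53. With 1 array left out, the tissue calls of Sgcd and Itga7 were kept throughout. The averaged call of Pdlim3 was lost without F344 DA replicate 1 or either F344 aorta array (highest adjusted p 0.0748), and that of Sspn without any array but BN DA replicate 2 and BN aorta replicate 1 (highest 0.129). In DA the strain call of Sgcd was lost without either F344 DA array (highest 0.111) and that of Ldb3 without any 1 of the 8 (highest 0.22). Repeated quantile normalization and centring on brighter genes ended the calls of Sspn (-0.28 and -0.24, adjusted p = 0.119 and 0.204) and Ldb3 (0.39 and 0.38, adjusted p = 0.082 and 0.112). The list's median was -0.04 in F344 and 0.00 in BN.

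Of 29 regulators of the smooth muscle programme, 2 rose and 1 fell in F344 DA, 0 passed in BN (limma, 7 with an unadjusted p under 0.05), and 4 rose and 5 fell on average. Fhl2, a LIM cofactor that binds SRF, rose by 1.44 in F344 (adjusted p = 0.00201). It was at 10.22 and 10.03 in DA against 8.68 and 8.70 in aorta on the F344 arrays, and at 9.64 and 9.01 in DA against 8.42 and 8.42 in aorta on the BN arrays, so that DA was the higher in each strain. It was lower in BN than in F344 DA by 0.80 (a difference of -0.80, adjusted p = 0.0479). The homeobox gene Meis1 rose by 0.84 in F344, and Heyl, a Notch target, fell by 0.98. On average Fhl2 rose by 1.17, Meis1 by 0.67 and Isl1 by 0.64, and Heyl fell by 0.63. Srf, named after its values were seen, had an averaged difference of 0.12 ± 0.08, and Klf4, a repressor of contractile genes named likewise, fell by 0.41 (adjusted p = 0.0391). With 1 array left out, the tissue calls of Fhl2, Meis1 and Heyl were kept throughout, that of Klf4 held only without BN DA replicate 1 (highest 0.154), and that of Isl1 was lost without F344 DA replicate 2 or replicate 1 of either aorta (highest 0.083). The call of Klf4 was also lost under both rescalings (-0.28 in each, adjusted p = 0.114 in each). The strain call of Fhl2 in DA held only without BN DA replicate 1 (highest 0.198). The list's median was -0.20 in F344 and 0.03 in BN.

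**Figure D4:**
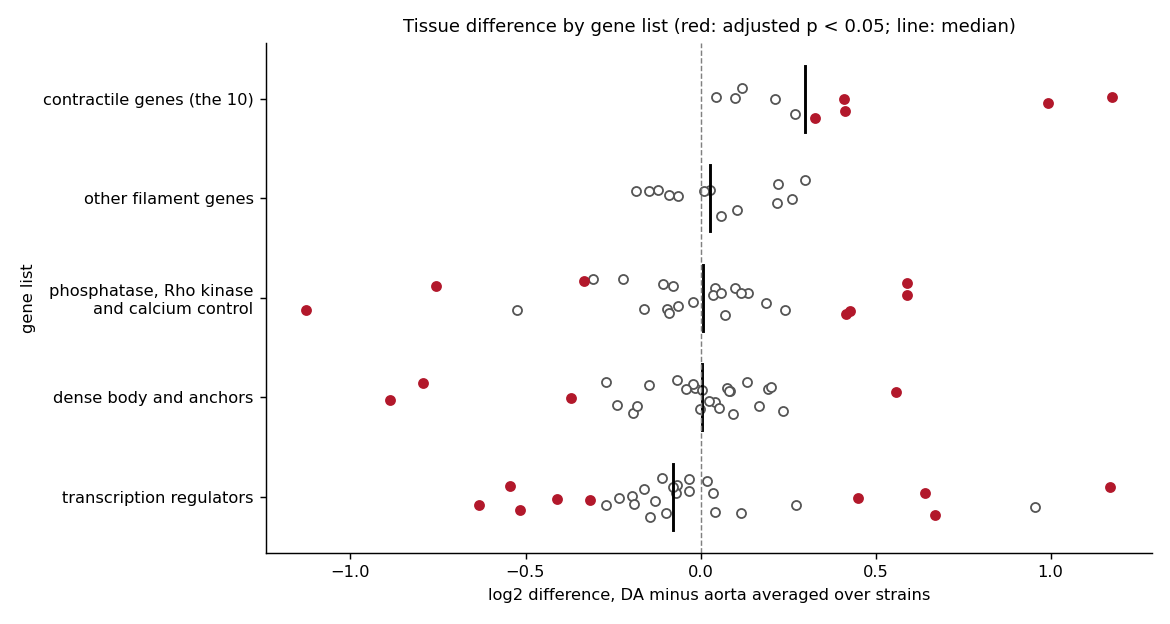
Log2 difference between DA and aorta averaged over strains (x axis) for the genes of each list (y axis, points spread vertically for legibility); red points had an adjusted p under 0.05 and black lines are medians. All 5 red points of the contractile genes are above 0, whereas red points of the regulatory, anchor and transcription lists lie on both sides.

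Markers of other cells moved with the tissue in F344, and their part in the contractile differences was not tested. Over all genes 8.87% rose and 5.12% fell there. Of 14 endothelial markers 0 rose and 6 fell in F344 DA, and their mean was 8.41 and 8.33 in DA and 8.88 and 8.76 in aorta. Of 15 macrophage markers 0 rose and 5 fell, with means of 7.24 and 7.13 against 7.79 and 7.57. Of 13 adventitial fibroblast markers 1 rose and 5 fell, with means of 10.22 and 10.11 against 10.64 and 10.49. Of 10 pericyte markers 4 rose, Rgs5, Kcnj8, Abcc9 and Mcam, and 2 fell, Notch3 by 0.54 and Cox4i2 by 0.70. The pericyte means were 9.83 and 9.80 against 9.54 and 9.63. Defining markers below the median of tested genes on every array numbered 1 of 14 for endothelium, 3 of 15 for macrophages, 1 of 13 for fibroblasts and 2 of 10 for pericytes.

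In BN, 0 of 14 endothelial and 0 of 15 macrophage markers passed, while 3 of 13 fibroblast markers fell and 1 of 10 pericyte markers, Rgs5, rose. Of the endothelial and macrophage markers 1 and 5 had an unadjusted limma p under 0.05, against 2026 of all 14506 genes. On the BN arrays the endothelial mean was 8.87 and 8.70 in DA against 8.73 and 8.80 in aorta. The macrophage mean was 7.38 and 7.72 in DA against 8.01 and 7.94 in aorta. Of 9 markers of visceral and airway tissue, where Actg2 is also made, 1 rose, Epcam, and 2 fell, Krt8 and Krt18, in F344 DA. Below the median of tested genes on every array were 5 of the 9, Barx1, Sftpc, Sftpb, Tbx4 and Epcam. Epcam lay between 3.95 and 4.91. The list's mean was 6.55 and 6.55 in F344 DA and 6.77 and 6.66 in F344 aorta.

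The genes whose profiles were nearest to the members that spanned at least 1 log2 unit were found by the root mean square difference of centred values over the 8 arrays. Nearest to Actg2 were Tnfrsf11b (0.10), which encodes osteoprotegerin, C1qtnf1 (0.11) and the retinol-esterifying enzyme gene Lrat (0.14). Tnfrsf11b was at 12.43 and 12.33 in DA against 10.97 and 10.91 in aorta on the F344 arrays, and at 12.43 and 11.53 in DA against 11.10 and 10.67 in aorta on the BN arrays, and thus also had a low BN DA replicate 2. Nearest to Des were Rap1gap2 (0.13), Gsta1 (0.17) and the proprotein convertase gene Pcsk5 (0.19). Actg2 and Des differed from each other by 0.25, and Cnn1 and Mylk by 0.08. The profiles share arrays and replicate gaps, so these values are descriptions.

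**Figure D5:**
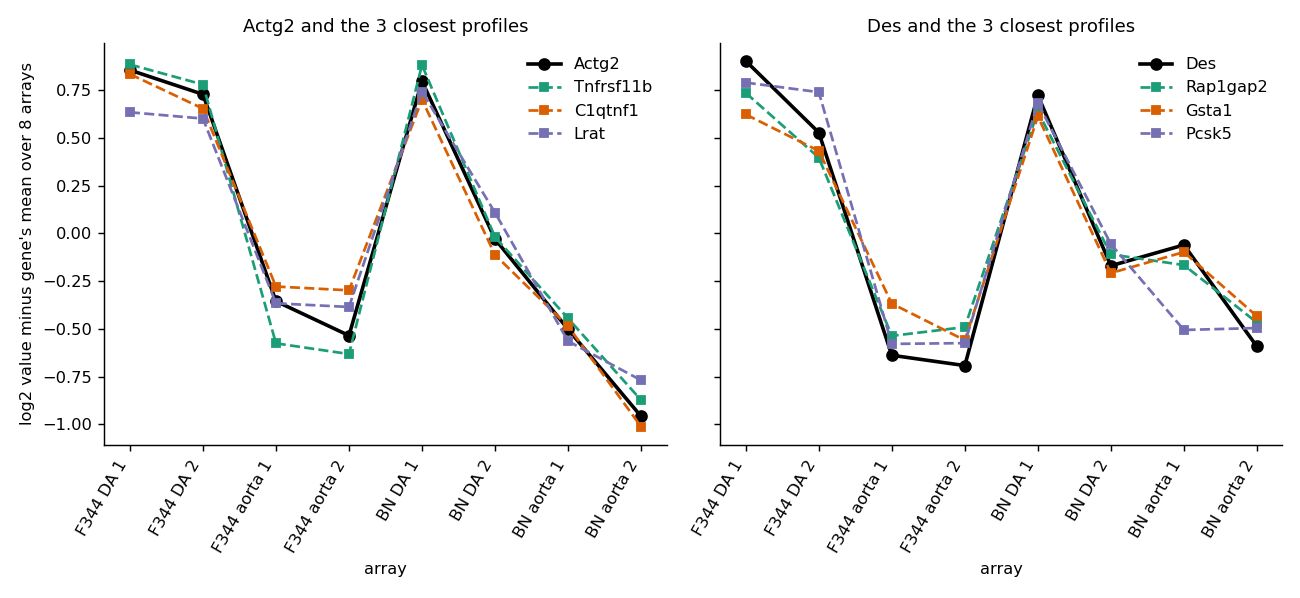
Log2 value minus each gene's mean over the 8 arrays (y axis) for Actg2 (left) and Des (right) in black with the 3 nearest genes in colour, on each array (x axis); lines only join the arrays. In every profile the DA arrays of F344 and BN DA replicate 1 are high, and BN DA replicate 2 is lower than BN DA replicate 1.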

How the data were processed

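The deposited table held 29215 probe sets in 8 arrays and 0 columns of other samples. The authors' deposited values are on a log2 scale, and RMA, which subtracts background, brings arrays to a common distribution and combines the probes of a set, is the tool listed in the submitters' processing notes, with no version or settings. Values were used as deposited. The platform annotation of 2016 gave 1 symbol for 15310 probe sets, several for 323 and none for 13582, and the probe set with the highest mean was kept, which left 14506 genes.

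Limma (version 3.58.1, R version 4.3.3) fitted a mean for each of the 4 groups to all 8 arrays, with 4 residual and 5.25 prior degrees of freedom. Tests were two-sided and called where the p adjusted over all genes by Benjamini-Hochberg was under 0.05. On simulated data of 14506 genes, the F344 tissue comparison recovered 77% of 100 genes given a log2 change of 1 and 97% of 100 given a change of 2. Of the simulated calls 5.4% were false. The simulation gave a gene the same spread in all 4 groups and changed few genes, unlike these data. Its shares are therefore a check of the code and not the power here. The members and lists were chosen with earlier results of these data known. Named genes were all members, up to 4 called genes with the largest differences per list and comparison, Tfap2b, and the 3 nearest profiles; others are stated as such. The number of arrays limits the precision. Promoter sequences came from RefSeq (GRCr8), matched by symbol. Figures used matplotlib 3.10.9.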

Additional observations from a re-analysis of the deposited data

How the results depend on the processing

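Settings were changed singly, and the sign of every called difference of a contractile gene was kept in all of them. For DA against aorta in F344, 3 genes were called as deposited, and 5 after centring on brighter genes, with array weights or in a fit of the 4 arrays compared. Calls over all genes numbered 2028 as deposited, and 2401, 3710 and 3363 in those settings. In BN the count was 0, and for BN against F344 in DA it was 0. Averaged over strains it was 5, and 6 after centring on brighter genes (Myh11 added). It was 4 with array weights (Mylk lost, limma adjusted p = 0.053) and 1 with a 2-fold minimum. With 1 array left out a group held 1 array, and these counts moved, as did those over all genes. Replicate numbers are shared between groups, and the replicate differences of the groups correlated by between 0.03 and 0.52 over genes, but with 2 numbers this does not establish pairing. With the replicate number as a block, 1 gene, Actg2, was called for DA against aorta in BN (limma adjusted p = 0.0149). The count of calls over all genes in BN moved from 262 to 548. Mylk was added in F344 (limma adjusted p = 0.0236), where the count over all genes moved from 2028 to 2875.

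Differences that changed sign were uncalled in every setting except where given in the report. After centring on brighter genes Smtn was at -0.14 between strains in DA and at 0.0003 in aorta, and the interactions of Myh11, Myocd and Smtn were -0.12, -0.15 and -0.14. After repeated quantile normalization Smtn was at -0.051 between strains in DA, Acta2 at 0.052 in aorta, and the interactions of Myocd and Smtn were -0.053 and -0.040. With 1 array left out, Smtn ran from -0.032 to 0.094 for DA against aorta in F344, and in BN Lmod1 from -0.15 to 0.20 and Myl9 from -0.042 to 0.67. Between strains in DA the ranges were -0.23 to 0.22 for Myh11, -0.18 to 0.08 for Myocd, -0.32 to 0.052 for Lmod1, -0.052 to 0.074 for Smtn, -0.82 to 0.0053 for Actg2, -0.46 to 0.0043 for Tagln, -0.17 to 0.031 for Cnn1 and -0.89 to 0.0071 for Des. In aorta they were -0.12 to 0.006 for Myocd, -0.049 to 0.023 for Smtn, -0.13 to 0.23 for Lmod1, -0.038 to 0.19 for Mylk and -0.24 to 0.15 for Myh11. For the interaction they were -0.37 to 0.0034 for Lmod1, -0.19 to 0.27 for Myh11, -0.12 to 0.14 for Myocd, -0.039 to 0.087 for Smtn, -0.54 to 0.29 for Actg2 and -0.30 to 0.16 for Tagln. Of 36 calls among the other genes of the 4 lists, 16 were kept without any 1 array. In a fit of the 4 arrays compared, the BN calls of Pak1 and Pln and the strain calls of Casq2, Sgcd, Fhl2 and Ldb3 in DA were lost, and array weights ended those of Pak1, Fhl2 and Ldb3. The cause was not tested.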
